A study of Petromyzon marinus and Lampetra planeri with 28 samples.

Results

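The step from Tahara stage 20 (T20) to Tahara stage 21 (T21) in the cranial dorsal neural tube (DNT) of the sea lamprey, *Petromyzon marinus*, was compared across all loci of the authors' transcriptome. It is covered by 5 libraries of polyA RNA, T20 replicates 1 and 2 and T21 replicates 1, 2 and 3, out of 8 DNT RNA libraries and 28 samples in the series. Each library was made from the DNTs of 35 unmanipulated embryos, dissected from the head with an eyelash knife, and 3 T18 libraries of 30 embryos each entered the fit as the earlier stage. Neural crest (NC) cells are still premigratory or just leaving the neural tube at T20 and are delaminating at T21. Of 72171 loci in the count table, 55005 had a count in at least 1 of the T20 and T21 libraries and 25317 were tested. Between 12172421 and 61222575 fragments were counted per T20 or T21 library, and the T20 libraries had 15677501 and 13690592. Values are the deposited normalised counts, raw counts scaled by the authors with a size factor per library, and are listed in the order of the replicate numbers. Adjusted p-values are from the quasi-likelihood test of edgeR, with Benjamini-Hochberg adjustment over all tested loci, and a locus was called where its adjusted p was under 0.05. Brackets after a log2 value give it with the named library left out, where the fold moved by more than 1.5 times. An adjusted p with a library left out is given where the call was lost. With either T20 library left out, T20 has 1 pool. Adjusted p-values and counts of calls from such fits hold no spread between T20 pools.

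The NC arises at the border of the neural plate, where Wnt, BMP and FGF signals switch on border genes and then NC specifiers such as *SoxE* and *Foxd3*. Cells then lose their attachments to the neuroepithelium, change their cadherins and integrins and move into a matrix of fibronectin, laminins and collagens, steered by semaphorins, ephrins and endothelins. The neural tube that they leave is at the same time being divided along the head-to-tail and back-to-belly axes and is starting to form neurons. A dissected DNT holds NC, roof plate and other neural cells, and it can carry overlying ectoderm and neighbouring mesoderm. In bulk RNA, fewer cells of a type and less RNA per cell cannot be told apart.

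Between the stages, 2481 loci were called, 9.8% of those tested. Of these, 1368 (5.4%) were higher and 1113 (4.4%) lower at T21. The T20 and T21 libraries did not overlap at 39.7% of all tested loci. They overlapped at only 5 of the called loci, so a lack of overlap given below is not separate support for a call. Among called loci, the rises were larger than the falls. The median log2 fold change was 1.40 over the higher loci and -0.58 over the lower ones, and 907 higher against 344 lower loci changed by more than 2-fold. Beyond 8-fold, 258 loci were higher and 66 lower. No count was found in either T20 library at 65 called loci, and in any T21 library at 6. T21 replicate 3 was the deepest of these libraries. Calls at a mean of 1000 normalised counts or more were 340 higher and 599 lower (6.82% and 12% of such loci), so the falls lay more often at abundant loci. The split depended on the scaling, since higher loci made up 55.1% of the calls with TMM factors, 57.7% with RLE factors and 60.3% with DESeq2, but 46.7% with upper quartile factors (1295 higher, 1478 lower). Gene names were available only for loci in the study's lists of changed and co-expressed loci, which were made from these same libraries. Among 4716 tested loci with a name, 31.8% were called, 17.8% higher and 14% lower, against 4.76% of the 20601 without one (2.57% and 2.19%), so counts in the gene lists below are read against the shares of named loci. The median log2 fold change was 0.27 over tested loci with a name and 0.01 over all tested loci. Medians of the lists are to be read against the value for named loci. A list made from such names is not independent evidence of its direction.

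The largest rises by fitted log2 fold change belonged to loci with no count in either T20 library, for which only a lower bound can be given, against 3 counts over the stage. *Fat4* (XLOC_048889), a giant protocadherin, had 72, 56.6 and 97.7 normalised counts in the T21 libraries and was at least 35.1-fold higher. *SDK2* (XLOC_021591), a cell-surface molecule that pairs neurons of one kind, had 23.3, 49 and 46.3 and was at least 17.6-fold higher. *SCRT1* (XLOC_060444), a zinc-finger repressor of early neurons, reached 42.8, 39.8 and 30.0 and was at least 13.4-fold higher. The others were *RTN4R*/*Rtn4rl1* (XLOC_036104, receptors for myelin inhibitors of axon growth, at least 13.9-fold), *Grm3* (XLOC_012875, a metabotropic glutamate receptor, 13.4), *Cmpk2* (XLOC_001703, 12.6), *SOSTDC1* (XLOC_006932, a secreted BMP and Wnt antagonist, 11.1), *FAM65A* (XLOC_032401, 10.7), *btbd17*/*lppr5* (XLOC_024607, 10.5) and *LCP1* (XLOC_060297, the leukocyte actin bundler, 9.97). A slash joins the names of annotated genes that 1 assembled locus overlaps. The adjusted p was 0.055 without T21 replicate 3 for *RTN4R*, 0.051 to 0.053 without T21 replicates 1 or 2 for *SOSTDC1*, 0.055 to 0.099 without T21 replicates 2 or 3 for *Cmpk2* and 0.062 to 0.072 without T21 replicates 2 or 3 for *FAM65A*. Without T21 replicate 3, *Grm3* and *LCP1* did not pass the filter on low counts and were not tested.

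Loci of mesoderm, endoderm and the anterior or axial embryo stood among the largest falls. *hox-epsilon1* (XLOC_006403), whose locus also overlaps *skap-epsilon*, had 5179 and 2357 normalised counts at T20 and 379, 209.6 and 259 at T21. It fell by 3.77 ± 0.40 (SE) on the log2 scale, adjusted p = 0.0029. The change was -3.08 without T20 replicate 1. *meox2* (XLOC_018835), a factor of the somites, had 268 and 227 normalised counts at T20 and 25.3, 26 and 12.2 at T21. It fell by 3.78 ± 0.28 (SE) on the log2 scale, adjusted p = 8.2e-06. *GATA6* (XLOC_019574), of endoderm and heart, had 164 and 35.4 normalised counts at T20 and 11.7, 9.18 and 8.88 at T21 (-3.40 ± 0.55 (SE), -1.87 without T20 replicate 1 or -4.09 without T20 replicate 2). A lack of overlap between the T20 and T21 libraries was a condition for choosing these loci. The remaining falls were at low counts. They included *SIX3* (XLOC_011752), the forebrain and eye factor, with 65.8 and 44.7 normalised counts at T20 and 3.89, 0 and 2.59 at T21, whose adjusted p was 0.11 without T20 replicate 1 or 0.072 without T20 replicate 2. *ZP3* (XLOC_070110, log2 fold change -3.59, -4.65 without T21 replicate 3) and *Stard13* (XLOC_023211, -3.50, -2.84 without T20 replicate 1 or -4.16 without T21 replicate 1 or -2.61 without T21 replicate 3) kept their call without any library. *Dmbt1*, *Smtn* and *SLC7A2* did not keep it without 1 of the T20 or any of the T21 libraries (adjusted p 0.069 to 0.18 without T20 replicate 2 or T21 replicates 1, 2 or 3, 0.051 to 0.3 without T20 replicate 1 or T21 replicates 1, 2 or 3 and 0.053 to 0.16 without T20 replicate 1 or T21 replicates 1, 2 or 3).

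Among 30 tested loci of NC transcription factors, 9 were called higher and 4 lower, or 30% and 13.3%. Their median log2 fold change was 0.53, against 0.27 over tested loci with a name. The counts were 15 higher without T20 replicate 2 and 2 lower without T21 replicates 1, 2 or 3. Rising loci included *SoxE2* and *SoxE3* of the group E Sox genes, *Foxd3*, and also *Zeb2*, *Sox21*, *sox5* and *Zic4*, while *Prdm1*, *MYCN* and *TWIST1* fell. *PAX7*, *MSX2* and the *TFAP2* genes, which are among the factors of the neural plate border, were not called.

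The 3 *SoxE* loci differed in how far the T20 libraries lay from T21. *SoxE3* (XLOC_003722, listed as *Sox9*) had 103 and 212 normalised counts at T20 and 1706, 1978 and 1709 at T21, against 61.2, 44.6 and 125 at T18. It rose by 3.52 ± 0.48 (SE) on the log2 scale, adjusted p = 0.0048. *SoxE2* (XLOC_013714, also listed as *Sox9*) had 16.4 and 305 normalised counts at T20 and 3333, 3317 and 3294 at T21. It rose by 4.42 ± 0.89 (SE) on the log2 scale, adjusted p = 0.035. At *SoxE1* (XLOC_021434, listed as *SOX10*), the values were 899.8 and 2761 normalised counts at T20 and 4243, 4089 and 4216 at T21. With a log2 fold change of 1.19 ± 0.49 (SE) and an adjusted p of 0.21 the difference was not called, although neither T20 library reached the lowest T21 library. Without T20 replicate 2 the log2 fold change was 2.22. *SoxE* factors drive NC survival, migration and the choice of fate. *Foxd3* (XLOC_039546), a forkhead repressor that keeps NC cells multipotent, had 215 and 642 normalised counts at T20 and 1866, 1886 and 2288 at T21. It rose by 2.24 ± 0.46 (SE) on the log2 scale, adjusted p = 0.026. At each of the 4 loci T20 replicate 2 was the higher of the T20 libraries, by 2.06-fold at *SoxE3*, 18.6-fold at *SoxE2*, 3.07-fold at *SoxE1* and 2.98-fold at *Foxd3*. The fitted log2 fold change was 4.12 without T20 replicate 2 for *SoxE3*, 3.45 without T20 replicate 1 or 7.65 without T20 replicate 2 for *SoxE2* and 3.23 without T20 replicate 2 for *Foxd3*. The calls were lost at adjusted p = 0.053 without T20 replicate 1 for *SoxE3*, 0.055 to 0.084 without T18 replicate 3 or T21 replicates 1, 2 or 3 for *SoxE2* and 0.054 without T21 replicates 1 or 3 for *Foxd3*.

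**Figure D1:**
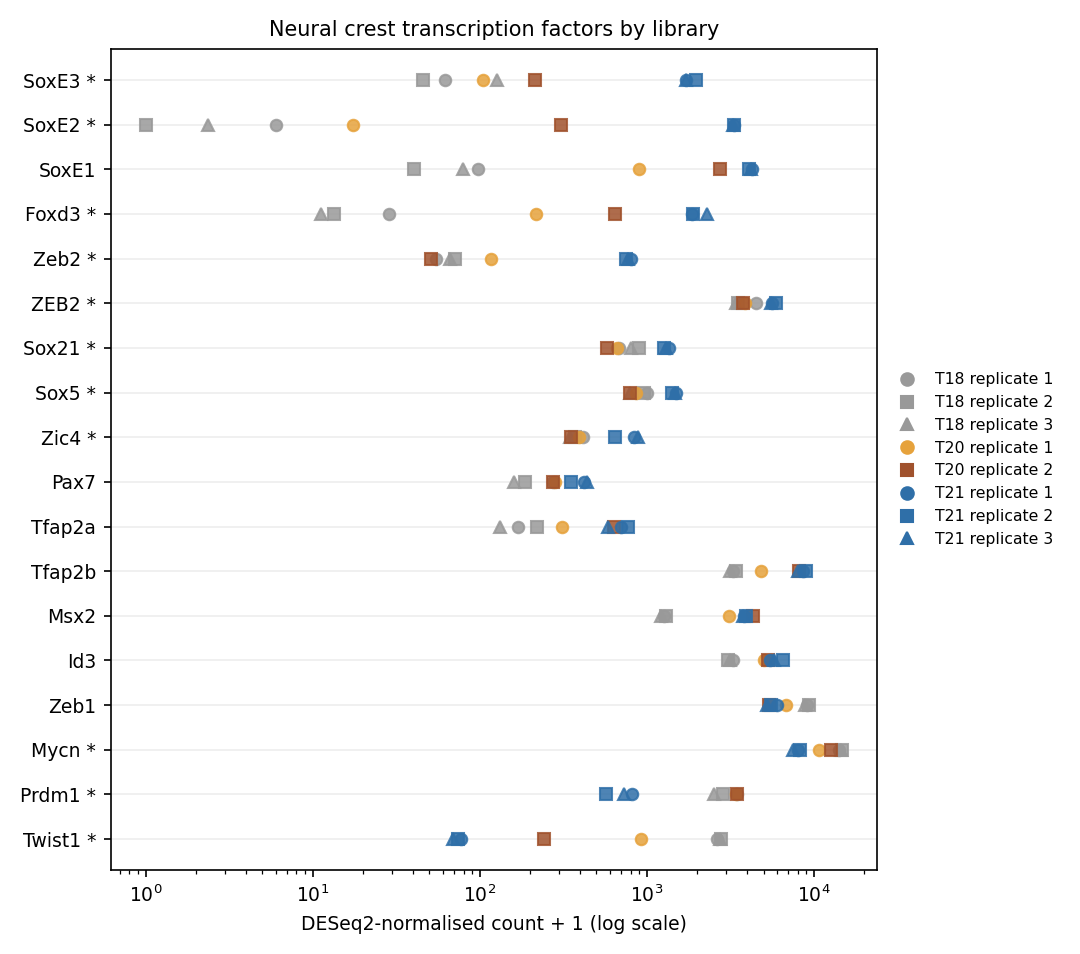
Normalised counts plus 1 on a log axis at 18 neural crest transcription factor loci, 1 symbol per library, with T18 in grey, the T20 libraries in orange and brown and T21 in blue; an asterisk marks loci with an adjusted p under 0.05 between T20 and T21. The T20 libraries lie far apart at *SoxE2*, from 16.4 to 305, and together at *Prdm1*, at 3416 and 3480, while the T21 libraries of each locus lie close together.

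*Zeb2* (XLOC_004958), a zinc-finger repressor of E-cadherin in the epithelial-to-mesenchymal transition (EMT), had 115 and 50.3 normalised counts at T20 and 804, 748 and 775 at T21. It rose by 3.19 ± 0.29 (SE) on the log2 scale, adjusted p = 3.5e-05 (3.96 without T20 replicate 1). A second *ZEB2* locus (XLOC_018527), added after values were seen, held more RNA and changed less, with 3869.9 and 3742 normalised counts at T20 and 5580.1, 5927 and 5541 at T21. It rose by 0.57 ± 0.11 (SE) on the log2 scale, adjusted p = 0.0067. *ZEB1* (XLOC_006700), its paralog, was not called, with 6785 and 5375 normalised counts at T20 and 6004, 5512 and 5251 at T21 (log2 fold change -0.13 ± 0.10 (SE)). *SOX21* (XLOC_010712), a SoxB repressor, had 667 and 577 normalised counts at T20 and 1364, 1271 and 1301 at T21. It rose by 1.06 ± 0.14 (SE) on the log2 scale, adjusted p = 0.00053. *Zic4* (XLOC_000217), a zinc-finger factor of the dorsal neural tube, had 393 and 350 normalised counts at T20 and 839, 641 and 884 at T21. It rose by 1.08 ± 0.17 (SE) on the log2 scale, adjusted p = 0.0021. *sox5* (XLOC_056139), a SoxD factor of NC and cartilage, had 856 and 795 normalised counts at T20 and 1486, 1417 and 1483 at T21 (log2 fold change 0.81 ± 0.12 (SE)). At the loci of this paragraph other than *ZEB1*, every T21 library lay above both T20 libraries.

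*Prdm1* (XLOC_000324) had the smallest adjusted p of the falls in the list, with 3416 and 3479.9 normalised counts at T20 and 815, 566 and 733 at T21. It fell by 2.30 ± 0.15 (SE) on the log2 scale, adjusted p = 6.1e-06. In zebrafish this zinc-finger protein is needed to specify NC and sensory neurons at the neural plate border. *MYCN* (XLOC_003703), a driver of growth and proliferation, had 10676 and 12598 normalised counts at T20 and 8063, 8234 and 7499 at T21. It fell by 0.56 ± 0.09 (SE) on the log2 scale, adjusted p = 0.0016. *TWIST1* (XLOC_018854), an EMT factor also made by mesoderm, had 928 and 240.2 normalised counts at T20 and 75.9, 73.4 and 68.5 at T21, against 2614, 2772 and 2728 at T18. It fell by 3.05 ± 0.53 (SE) on the log2 scale, adjusted p = 0.018 (-1.73 without T20 replicate 1 or -3.69 without T20 replicate 2). The adjusted p of this *TWIST1* locus was 0.051 to 0.066 without T21 replicates 1, 2 or 3, and that of a second, with 209 and 207 normalised counts at T20 and 123, 112 and 104 at T21 (XLOC_006540, log2 fold change -0.90 ± 0.24 (SE)), was 0.051 to 0.1 without T18 replicate 2 or T20 replicates 1 or 2 or T21 replicates 1, 2 or 3. Mesoderm markers fell in the same libraries, as given below, and their part in the *TWIST1* difference was not tested.

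Some factors of the plate border and some other NC regulators were not called. *MSX2* (XLOC_017489) had 3094 and 4334 normalised counts at T20 and 3802, 3930.2 and 3788 at T21 (log2 fold change 0.04 ± 0.12 (SE)), and *TFAP2B* (XLOC_001751) had 4829.6 and 8142 normalised counts at T20 and 8559, 8947 and 8082 at T21 (0.39 ± 0.17 (SE)). *Tfap2a* (XLOC_063192), with 309 and 637 normalised counts at T20 and 698, 771 and 585 at T21 (0.53 ± 0.29 (SE), 1.14 without T20 replicate 2), and *PAX7* (XLOC_042727), with 279.5 and 272 normalised counts at T20 and 422, 352 and 436 at T21 (0.54 ± 0.23 (SE)), were not called either. The repressor of differentiation *id3* (XLOC_000035) had 5054 and 5308 normalised counts at T20 and 5485, 6499 and 5738 at T21 (0.18 ± 0.09 (SE)), and *snai1* (XLOC_048217), an EMT repressor, had 98.7 and 52.1 normalised counts at T20 and 101, 84.1 and 71.1 at T21 (0.14 ± 0.33 (SE)). These 6 loci were picked for their role after values were seen. The smallest adjusted p among them was 0.17, at *PAX7*.

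Of 16 tested Wnt ligand loci, 6 were called higher and 3 lower (37.5% and 18.8%), and 3 higher without T21 replicate 2. *wnt10a* (XLOC_004998) had 32.9 and 59.6 normalised counts at T20 and 366, 467 and 383 at T21. It rose by 3.14 ± 0.40 (SE) on the log2 scale, adjusted p = 0.00048. *WNT3* (XLOC_028782) had 133 and 222 normalised counts at T20 and 1127, 1139.8 and 1184 at T21. It rose by 2.70 ± 0.41 (SE) on the log2 scale, adjusted p = 0.0044, but its adjusted p by DESeq2 was 0.28. *wnt4a* (XLOC_036886) had 558 and 585 normalised counts at T20 and 1934, 1808 and 1843 at T21. It rose by 1.69 ± 0.16 (SE) on the log2 scale, adjusted p = 4.5e-05. The 3 loci were each higher in every T21 library than in both T20 libraries. *wnt5b* (XLOC_050600, overlapping *LRTM2*), which acts through the planar polarity branch, had 2362 and 1249 normalised counts at T20 and 261, 148 and 164 at T21. It fell by 3.30 ± 0.30 (SE) on the log2 scale, adjusted p = 0.00085. *Wnt8a* (XLOC_040147, overlapping *sec31a*) had 668 and 307 normalised counts at T20 and 77.8, 75 and 90.7 at T21. It fell by 2.57 ± 0.28 (SE) on the log2 scale, adjusted p = 0.00048 (-1.86 without T20 replicate 1). *WNT1* (XLOC_006651), the classical dorsal midline Wnt, had 2184 and 2486 normalised counts at T20 and 3718, 3254 and 3606 at T21. It rose by 0.59 ± 0.16 (SE) on the log2 scale, adjusted p = 0.044. The call was lost at 0.052 to 0.15 without T18 replicate 3 or T20 replicates 1 or 2 or T21 replicates 1, 2 or 3. *WNT7A* (XLOC_023947) had 541 and 199 normalised counts at T20 and 64.2, 30.6 and 86.6 at T21. It fell by 2.53 ± 0.51 (SE) on the log2 scale, adjusted p = 0.022 (-1.56 without T20 replicate 1). Its adjusted p was 0.066 to 0.14 without T20 replicate 1 or T21 replicate 1. Its relative *WNT7B* (XLOC_043190) had 20.9 and 14.9 normalised counts at T20 and 56.4, 125 and 78.8 at T21. It rose by 2.25 ± 0.49 (SE) on the log2 scale, adjusted p = 0.013, and 0.062 without T21 replicate 2.

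Wnt receptors and modulators had more lower than higher calls, with 4 of 34 tested loci higher and 8 lower (11.8% and 23.5%), and 2 higher without T21 replicates 1 or 2, 7 higher without T20 replicate 2 and 5 lower without T21 replicate 1. *Dact1* (XLOC_011863), which binds and dampens Dishevelled, had 3009 and 1987 normalised counts at T20 and 860, 664 and 668 at T21. It fell by 1.80 ± 0.17 (SE) on the log2 scale, adjusted p = 0.00013. The locus of *SFRP1*/*SFRP5* (XLOC_020509), secreted decoys for Wnts, had 12239 and 7505 normalised counts at T20 and 4133, 3796 and 3230 at T21. It fell by 1.42 ± 0.20 (SE) on the log2 scale, adjusted p = 0.003. *PRICKLE2* (XLOC_023946), a planar polarity component, had 2138 and 1916 normalised counts at T20 and 1249, 1056 and 1033 at T21. It fell by 0.88 ± 0.10 (SE) on the log2 scale, adjusted p = 0.00025. *Notum* (XLOC_003862, overlapping *ASPSCR1*), a secreted enzyme that strips the lipid from Wnts, had 22.4 and 14.9 normalised counts at T20 and 101, 90.3 and 80.7 at T21. It rose by 2.24 ± 0.40 (SE) on the log2 scale, adjusted p = 0.0041. *rspo2* (XLOC_037520), which keeps Wnt receptors at the surface, had 181 and 158 normalised counts at T20 and 329, 416 and 308 at T21. It rose by 1.03 ± 0.19 (SE) on the log2 scale, adjusted p = 0.0048. The Wnt carrier *WLS* (XLOC_041425) was not called, with 11776 and 10138 normalised counts at T20 and 8732, 8479 and 10372 at T21 (log2 fold change -0.26 ± 0.11 (SE)).

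In the BMP and TGF-beta list 4 of 45 tested loci were higher and 5 lower (8.89% and 11.1%), with 7 higher without T18 replicate 1, 8 higher without T20 replicate 2, 9 higher without T20 replicate 1, 1 lower without T21 replicate 2, 2 lower without T20 replicate 1 or T21 replicates 1 or 3 and 3 lower without T18 replicate 2. *Gdf7* (XLOC_001741), a BMP of the roof plate, had 3.75, 3.3 and 13.8 normalised counts at T18, 100.1 and 95 at T20 and 1228, 1190.2 and 1167 at T21. It rose by 3.60 ± 0.31 (SE) on the log2 scale, adjusted p = 4.9e-05. *TGFB2* (XLOC_038148) had 2.99 and 3.72 normalised counts at T20 and 93.4, 103 and 107 at T21. It rose by 4.88 ± 0.65 (SE) on the log2 scale, adjusted p = 0.00066. *Crim1* (XLOC_037896), a membrane protein that binds BMPs, had 76.2 and 65.2 normalised counts at T20 and 253, 226 and 217 at T21. It rose by 1.70 ± 0.30 (SE) on the log2 scale, adjusted p = 0.0042. *Bmp1* (XLOC_040093), a protease that trims procollagens and frees BMPs from Chordin, had 1066 and 1357 normalised counts at T20 and 656, 721 and 663 at T21. It fell by 0.84 ± 0.12 (SE) on the log2 scale, adjusted p = 0.0011. The antagonist *GREM1* (XLOC_042234), added after values were seen, had 486 and 186 normalised counts at T20 and 54.5, 30.6 and 32.6 at T21. It fell by 3.22 ± 0.61 (SE) on the log2 scale, adjusted p = 0.024 (-2.34 without T20 replicate 1). It lost its call at an adjusted p of 0.065 to 0.16 without T20 replicate 1 or T21 replicates 2 or 3. The receptors *TGFBR1* (XLOC_005017) and *ACVR2B* (XLOC_018727) were not called, with log2 fold changes of 0.37 ± 0.14 (SE) and -0.35 ± 0.11 (SE).

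Among 16 tested FGF pathway loci, 3 were called higher and 5 lower (18.8% and 31.2%). The lower ones include XLOC_020613, which overlaps *FGF8*, *SUFU*, *npm1* and *FBXW4*. That locus is also counted as lower in the Hedgehog and ribosome biogenesis lists. Over FGF loci with a single name, 1 was higher and 4 lower. *FGF19* (XLOC_046406) had 208 and 216 normalised counts at T20 and 44.7, 32.1 and 47.4 at T21. It fell by 2.34 ± 0.33 (SE) on the log2 scale, adjusted p = 0.0009. Another ligand, *FGF9* (XLOC_003810, overlapping *MLH*), had 34.4 and 65.2 normalised counts at T20 and 292, 277 and 188 at T21. It rose by 2.33 ± 0.46 (SE) on the log2 scale, adjusted p = 0.0076. *DUSP4* (XLOC_017501), a phosphatase that ERK signalling induces and that shuts ERK off, had 20.9 and 50.3 normalised counts at T20 and 198, 254 and 245 at T21. It rose by 2.73 ± 0.43 (SE) on the log2 scale, adjusted p = 0.002 (3.47 without T20 replicate 2). *FLRT3* (XLOC_050803), a membrane protein that binds FGF receptors and Unc5, had 2333 and 2150.5 normalised counts at T20 and 1405, 1538 and 1345 at T21. It fell by 0.66 ± 0.09 (SE) on the log2 scale, adjusted p = 0.00084. The feedback genes *Spry1* (XLOC_027164) and *Etv4* (XLOC_018831) were not called, with log2 fold changes of 0.16 ± 0.24 (SE) and -0.06 ± 0.13 (SE).

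In the Notch list, 3 of 21 tested loci were higher and 3 lower (14.3% each), and 0 higher without T21 replicates 2 or 3 and 5 higher without T18 replicate 1. The higher loci were *Dll4*/*JAG1* (XLOC_026301, log2 fold change 0.52 ± 0.12 (SE)), *Jag1* (XLOC_060285, 1.98 ± 0.50 (SE)) and *Dtx2*/*Dtx4* (XLOC_035958, 0.44 ± 0.11 (SE)). Values with a library left out are not given for them. A pair of *HES1* loci, targets of Notch that hold back neurogenesis, both fell. The first (XLOC_036684) had 2303 and 2305 normalised counts at T20 and 1652, 1280.5 and 1433 at T21. It fell by 0.68 ± 0.10 (SE) on the log2 scale, adjusted p = 0.0015. The second (XLOC_036850) had 4028 and 4167 normalised counts at T20 and 2885, 2649.7 and 2676 at T21. It fell by 0.59 ± 0.10 (SE) on the log2 scale, adjusted p = 0.0027. The receptor *notch1* (XLOC_055543) was not called, with 3992 and 3843 normalised counts at T20 and 4214, 4062 and 4267 at T21 (log2 fold change 0.08 ± 0.09 (SE)).

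Hedgehog loci gave 3 higher and 3 lower of 14 tested (21.4% each), with 1 lower without T20 replicate 1 or T21 replicates 2 or 3. Over Hedgehog loci with a single name, 3 were higher and 2 lower, without the shared *FGF8*/*SUFU*/*npm1* locus. *GAS1* (XLOC_031082), a co-receptor, had 1075 and 1208 normalised counts at T20 and 1792, 1978 and 1754 at T21. It rose by 0.68 ± 0.11 (SE) on the log2 scale, adjusted p = 0.0019. *HHIP* (XLOC_027039), which sequesters the ligand, had 46.3 and 37.2 normalised counts at T20 and 177, 155 and 135 at T21. It rose by 1.87 ± 0.36 (SE) on the log2 scale, adjusted p = 0.0067. The ligand *SHH* (XLOC_005505) had 68.8 and 24.2 normalised counts at T20 and 13.6, 7.65 and 8.51 at T21. It fell by 2.32 ± 0.53 (SE) on the log2 scale, adjusted p = 0.016 (-1.34 without T20 replicate 1). The adjusted p rose to 0.069 to 0.16 without T20 replicate 1 or T21 replicates 2 or 3. *Gli3* (XLOC_006831), the transcription factor of the pathway, was not called, with 5007 and 4267 normalised counts at T20 and 5049, 4619 and 5085 at T21 (log2 fold change 0.07 ± 0.11 (SE)).

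In retinoic acid metabolism and signalling, 4 of 12 tested loci were higher and 5 lower (33.3% and 41.7%), and 2 lower without T20 replicate 1 or T21 replicates 2 or 3 and 3 lower without T21 replicate 1. *CYP26C1* (XLOC_020698), an enzyme that degrades retinoic acid, had 609.9 and 683 normalised counts at T20 and 4164, 5091 and 4505 at T21. It rose by 2.82 ± 0.23 (SE) on the log2 scale, adjusted p = 0.00011. Its relative *CYP26A1* (XLOC_020696) went the other way, with 80.7 and 109.9 normalised counts at T20 and 13.6, 30.6 and 15.2 at T21. It fell by 2.35 ± 0.43 (SE) on the log2 scale, adjusted p = 0.0076. The adjusted p became 0.051 to 0.17 without T20 replicates 1 or 2 or T21 replicate 3. *crabp2* (XLOC_048304), which carries retinoic acid to its nuclear receptors, had 1522 and 1349.9 normalised counts at T20 and 5331, 6145 and 4399.6 at T21. It rose by 1.87 ± 0.14 (SE) on the log2 scale, adjusted p = 1e-05. Of those receptors, *RARB* (XLOC_006819, overlapping *raraa*) had 1081 and 1035 normalised counts at T20 and 2127, 2275 and 1933 at T21. It rose by 0.98 ± 0.16 (SE) on the log2 scale, adjusted p = 0.0022. A locus of *RARB*/*RARG* (XLOC_033482) fell, with 1119.6 and 842 normalised counts at T20 and 654, 673 and 547 at T21 (log2 fold change -0.67 ± 0.16 (SE)), and its adjusted p was 0.057 to 0.097 without T20 replicate 1 or T21 replicates 1, 2 or 3. The gamma receptor *rarga* (XLOC_018778) had 2789 and 2506 normalised counts at T20 and 1864, 1964 and 1761 at T21. It fell by 0.52 ± 0.09 (SE) on the log2 scale, adjusted p = 0.0032. *LRAT* (XLOC_038186), which stores retinol as esters and was not in the list, was added after values were seen. It had 17.9 and 31.7 normalised counts at T20 and 712, 875 and 733 at T21. It rose by 4.98 ± 0.34 (SE) on the log2 scale, adjusted p = 6.1e-06.

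Hox and axial factors gave 5 higher and 7 lower of 24 tested loci (20.8% and 29.2%), with 0 higher without T21 replicate 1, 1 higher without T20 replicate 2 or T21 replicates 2 or 3 and 3 higher without T20 replicate 1. *hox-beta1* (XLOC_018557) had 4000 and 3545 normalised counts at T20 and 1973, 1859 and 1757 at T21. It fell by 1.03 ± 0.10 (SE) on the log2 scale, adjusted p = 4.5e-05. *hox-alpha4* (XLOC_005121) had 223 and 194 normalised counts at T20 and 91.4, 49 and 38.5 at T21. It fell by 1.95 ± 0.27 (SE) on the log2 scale, adjusted p = 0.00096. Other Hox loci rose, at low counts. *hox-beta4* (XLOC_018555) went from 5.98 and 1.86 to 38.9, 18.4 and 26.6 (log2 fold change 2.71 ± 0.64 (SE)). *hox-delta2* (XLOC_033552) went from 14.9 and 11.2 to 62.3, 41.3 and 42.9 (1.86 ± 0.49 (SE)). Neither of these calls held without T21 replicate 1, and fold changes with a library left out are not given for them. The Hox cofactors also had loci in both directions. The cofactor locus *MEIS1*/*MEIS2*/*meis3-b* (XLOC_053600) had 6563 and 5959.9 normalised counts at T20 and 3345, 3536 and 2959 at T21. It fell by 0.95 ± 0.11 (SE) on the log2 scale, adjusted p = 0.00025. A separate *MEIS2* locus (XLOC_037897) had 408 and 344 normalised counts at T20 and 671, 624 and 596 at T21. It rose by 0.73 ± 0.19 (SE) on the log2 scale, adjusted p = 0.028. The call was lost at 0.062 to 0.11 without T20 replicate 2 or T21 replicates 1, 2 or 3. A pair of other *MEIS1* loci (XLOC_050799 and XLOC_029378) were also higher (log2 fold changes 1.60 ± 0.36 (SE), 2.21 without T20 replicate 1, and 1.15 ± 0.30 (SE)), with adjusted p-values of 0.054 to 0.067 without T20 replicate 2 or T21 replicates 1 or 2 and 0.055 to 0.14 without T18 replicate 2 or T20 replicate 1 or T21 replicates 1, 2 or 3.

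**Figure D2:**
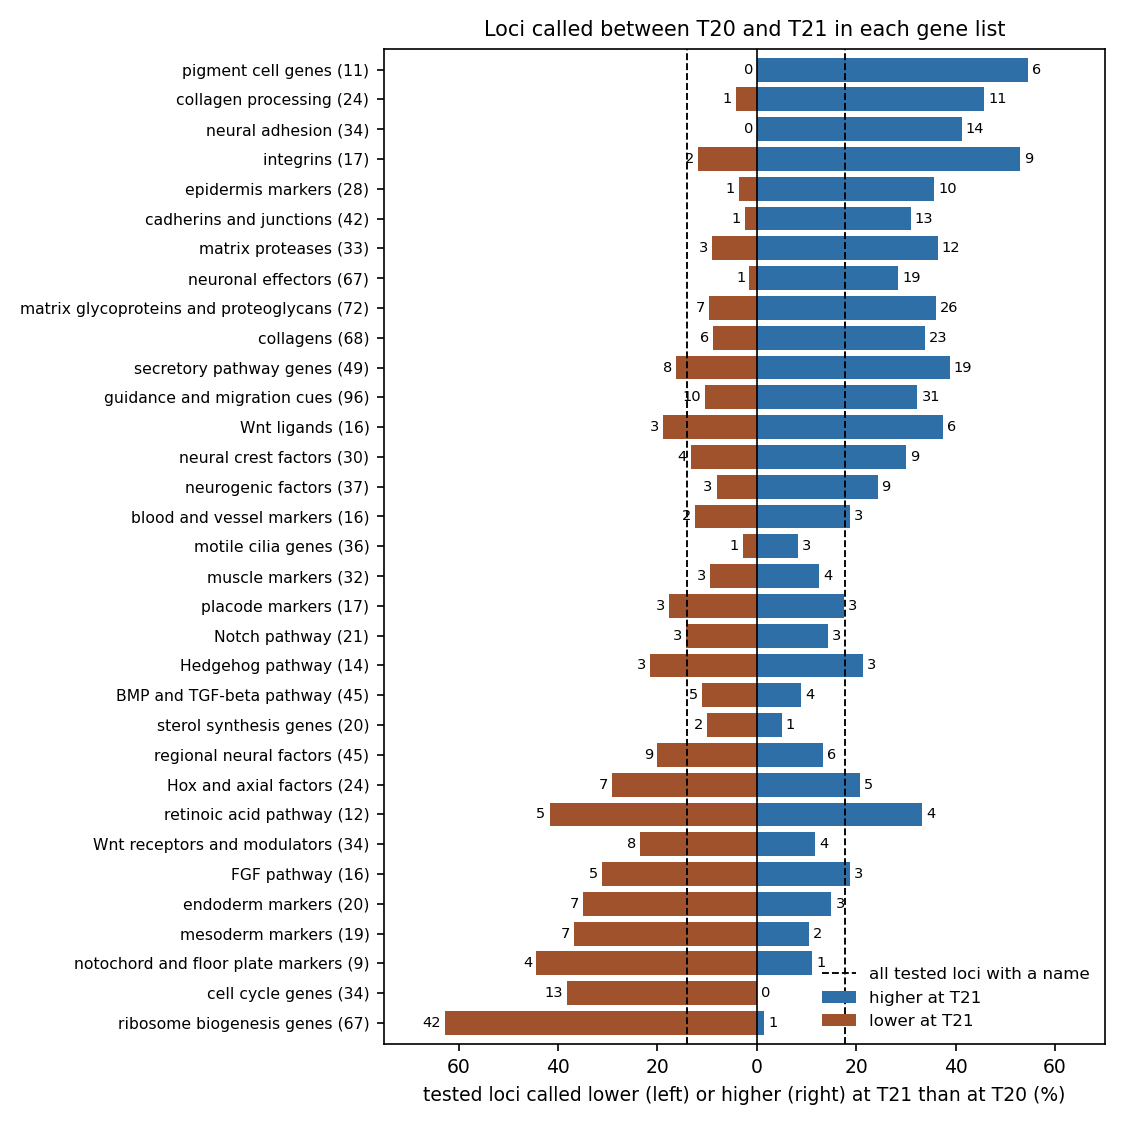
Percent of the tested loci of each of 33 gene lists that were called higher (blue, right) or lower (brown, left) at T21 than at T20, with the number of called loci beside each bar, the number tested in brackets and dashed lines at the shares of all tested loci with a name (17.8% and 14%). Pigment cell genes have 6 of 11 loci higher and none lower, and ribosome biogenesis genes have 42 of 67 lower and 1 higher.

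Loci for cell adhesion, matrix and guidance were more often higher than lower. The percentages of tested loci called higher were 31 for cadherins and junctions, 52.9 for integrins, 41.2 for neural adhesion, 33.8 for collagens, 36.1 for other matrix proteins, 36.4 for matrix proteases and 32.3 for guidance cues, against 17.8 among named loci. The percentages called lower were 2.38, 11.8, 0, 8.82, 9.72, 9.09 and 10.4, against 14 among named loci. Whether any list differed from the other named loci was not tested.

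Of 42 tested cadherin and junction loci, 13 were called higher and 1 lower, and 8 higher without T21 replicates 1, 2 or 3 and 2 lower without T21 replicate 3. A pair of adjacent *CadN* loci, for the classical cadherin of neural tissue, lay on the same strand of scaf_00033 in the sea lamprey germline assembly. The first (XLOC_032344, scaf_00033:9062279-9107300) had 1.49 and 1.86 normalised counts at T20 and 348, 386 and 401 at T21, a ratio of 236 (95% interval 65.2 to 1950.1), and the second (XLOC_032345, scaf_00033:9108139-9136289) had 53.8 and 91.2 normalised counts at T20 and 1689, 2137 and 1904 at T21. It rose by 4.73 ± 0.22 (SE) on the log2 scale, adjusted p = 7.3e-07. They may be parts of 1 gene, and the same holds for *Fat4*, whose second locus (XLOC_048890, scaf_00062:888171-911726, next to the first at scaf_00062:840669-886919) had 4.48 and 5.59 normalised counts at T20 and 304, 304 and 373 at T21. It rose by 6.00 ± 0.65 (SE) on the log2 scale, adjusted p = 0.00017. *CDH3* (XLOC_047871), P-cadherin, was the only lower locus of the list and had 89.7 and 52.1 normalised counts at T20 and 19.5, 9.18 and 10.7 at T21. It fell by 2.51 ± 0.51 (SE) on the log2 scale, adjusted p = 0.0083. The abundant tight-junction gene *CLDN3* (XLOC_061419) was not called and T21 replicate 3 lay near the T20 level, with 43128 and 44506 normalised counts at T20 and 23443, 24334 and 41638 at T21 (log2 fold change -0.56 ± 0.25 (SE)).

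Integrins gave 9 higher and 2 lower of 17 tested loci, with 4 higher without T21 replicate 1, 0 lower without T21 replicates 1, 2 or 3 and 1 lower without T18 replicates 1, 2 or 3 or T20 replicate 1. *ITGA5* (XLOC_028761), the alpha chain of the fibronectin receptor, had 1087 and 1041 normalised counts at T20 and 1786, 1837 and 1829 at T21. It rose by 0.76 ± 0.10 (SE) on the log2 scale, adjusted p = 0.0005. *ITGA9* (XLOC_033777), which binds tenascin, had 550.1 and 879 normalised counts at T20 and 1681, 1762 and 1643 at T21. It rose by 1.24 ± 0.17 (SE) on the log2 scale, adjusted p = 0.00063. A collagen-binding alpha locus, *ITGA10*/*ITGA11*/*ITGA2* (XLOC_015735), had 829.6 and 592 normalised counts at T20 and 1739, 1744 and 1664 at T21. It rose by 1.26 ± 0.16 (SE) on the log2 scale, adjusted p = 0.00045. Another locus with the name *Itga11* (XLOC_008340, overlapping *ANP32B*) was lower (log2 fold change -0.35 ± 0.09 (SE)). Its adjusted p was 0.051 to 0.1 without T18 replicates 1, 2 or 3 or T21 replicates 1, 2 or 3. The ligand of *ITGA5*, *fn1* (XLOC_028729), was among the most abundant matrix loci and was not called, with 21755 and 20784 normalised counts at T20 and 28299, 23079.6 and 27570.2 at T21 (log2 fold change 0.30 ± 0.11 (SE)). A scarcer *fn1* locus (XLOC_045097) was called higher, from 121 and 156 to 327, 223 and 282 (0.99 ± 0.26 (SE)). Values with a library left out are not given for the scarcer locus.

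In the neural adhesion list, 14 of 34 tested loci were higher and none lower by edgeR's test, with a median log2 fold change of 1.25 and 9 higher without T21 replicates 2 or 3 and 1 lower without T20 replicate 2. The locus of *Nrcam*/*NFASC* (XLOC_012728), immunoglobulin-like proteins of axons and glia, had 114 and 209 normalised counts at T20 and 1446, 1542 and 1493 at T21. It rose by 3.22 ± 0.22 (SE) on the log2 scale, adjusted p = 6.1e-06. *SDK1* (XLOC_021588), a paralog of *SDK2*, had 8.97 and 3.72 normalised counts at T20 and 79.8, 181 and 107 at T21. It rose by 4.19 ± 0.63 (SE) on the log2 scale, adjusted p = 0.0015 (5.01 without T20 replicate 1). The leucine-rich repeat proteins *LRRN1* (XLOC_061840) and *LRRN2* (XLOC_023907) both rose, from 31.4 and 29.8 to 140.1, 169.8 and 187 (log2 fold change 2.43 ± 0.36 (SE)) and from 6647 and 7623 to 15425, 15687 and 13559 (1.05 ± 0.10 (SE)). *NCAM1* (XLOC_030233), present at 8089.6 and 8075 normalised counts at T20, was not called at 9386, 8635 and 8621 (0.12 ± 0.09 (SE)).

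Collagens gave 23 higher and 6 lower of 68 tested loci, with a median log2 fold change of 1.08 and 2 lower without T20 replicate 1 or T21 replicates 1, 2 or 3. The network-forming type IV chains of basement membranes rose. *Col4a1* (XLOC_000587) had 2010.4 and 2029 normalised counts at T20 and 8224, 8318 and 7311 at T21. It rose by 1.96 ± 0.13 (SE) on the log2 scale, adjusted p = 4.5e-06. *COL4A6* (XLOC_000225) had 1214 and 1041 normalised counts at T20 and 4656, 4999.6 and 4315 at T21. It rose by 2.03 ± 0.17 (SE) on the log2 scale, adjusted p = 3.6e-05. The chains of type VI collagen, which forms beaded filaments next to basement membranes, also rose. *Col6a1* (XLOC_006886, overlapping *SETD1A*) had 791 and 1104 normalised counts at T20 and 5800, 6272 and 5206 at T21. It rose by 2.60 ± 0.19 (SE) on the log2 scale, adjusted p = 2.6e-05. *Col6a4* (XLOC_006566, overlapping *Ambp*) had 892 and 1428 normalised counts at T20 and 7748, 8321 and 7704 at T21. It rose by 2.77 ± 0.17 (SE) on the log2 scale, adjusted p = 7e-06. Among loci added after values were seen, *COL6A2* (XLOC_006884) had 1248 and 2102 normalised counts at T20 and 6718, 6835 and 5714 at T21. It rose by 1.93 ± 0.26 (SE) on the log2 scale, adjusted p = 0.0032. *COL6A3* (XLOC_068849) had 38.9 and 44.7 normalised counts at T20 and 395, 441 and 478 at T21. It rose by 3.39 ± 0.28 (SE) on the log2 scale, adjusted p = 6.6e-05. At each of the 4 type VI loci every T21 library was above both T20 libraries. *col-99* (XLOC_025683), named after a nematode collagen, had 185 and 147 normalised counts at T20 and 62.3, 62.7 and 60.7 at T21. It fell by 1.44 ± 0.27 (SE) on the log2 scale, adjusted p = 0.0054. A locus of the fibrillar *COL1A1* (XLOC_033494) was not called, with 3421 and 2728 normalised counts at T20 and 4397, 4828 and 3804 at T21 (log2 fold change 0.48 ± 0.30 (SE)). Scarcer *COL1A1* loci were called higher. They went from 10.5 and 5.59 to 85.6, 90.3 and 65.1 (XLOC_003461, 3.26 ± 0.72 (SE)) and from 637 and 467 to 907, 897 and 1000 (XLOC_055341, 0.75 ± 0.20 (SE)). *COL3A1* and *COL5A1*, also fibrillar, each had called loci in both directions. Values with a library left out are not given for these scarcer or other fibrillar loci.

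Genes that process collagen were higher at 11 of 24 tested loci (45.8%) and lower at 1 (4.17%), *Bmp1*. The locus of *P4HB*/*BAIAP3* (XLOC_013619), the first a subunit of prolyl 4-hydroxylase, had 34.4 and 50.3 normalised counts at T20 and 693, 749.6 and 555 at T21. It rose by 3.97 ± 0.31 (SE) on the log2 scale, adjusted p = 1.4e-05. The abundant *P4HB* locus (XLOC_035130) was not called, with 11992 and 15059 normalised counts at T20 and 17867, 17421 and 15740.3 at T21 (log2 fold change 0.32 ± 0.10 (SE)). *ADAMTS14*/*ADAMTS3* (XLOC_014877), peptidases that cut the amino end of procollagen, had 118 and 130.3 normalised counts at T20 and 708, 788 and 845 at T21. It rose by 2.65 ± 0.22 (SE) on the log2 scale, adjusted p = 2.1e-05. *Creb3l1* (XLOC_016876), a membrane-tethered factor that turns on collagen secretion, had 362 and 415 normalised counts at T20 and 805, 952 and 834 at T21. It rose by 1.14 ± 0.16 (SE) on the log2 scale, adjusted p = 0.00085. *PLOD2* (XLOC_016748), a lysyl hydroxylase for cross-links, had 2249.6 and 2199 normalised counts at T20 and 3350.4, 3398 and 3313 at T21. It rose by 0.58 ± 0.09 (SE) on the log2 scale, adjusted p = 0.0015.

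Matrix glycoproteins and proteoglycans gave 26 higher and 7 lower of 72 tested loci, with 14 higher without T21 replicate 3, 15 higher without T21 replicate 1 and 4 lower without T21 replicates 2 or 3. *Fbln2* (XLOC_024094), a fibulin, had 141 and 201 normalised counts at T20 and 1181, 1296 and 1059 at T21. It rose by 2.78 ± 0.23 (SE) on the log2 scale, adjusted p = 2.2e-05. *bgn* (XLOC_024019), a small proteoglycan, had 118 and 218 normalised counts at T20 and 969, 1389 and 1037 at T21. It rose by 2.76 ± 0.27 (SE) on the log2 scale, adjusted p = 7.7e-05. *lamb4* (XLOC_028055), a laminin chain, had 80.7 and 112 normalised counts at T20 and 519, 561 and 453 at T21. It rose by 2.40 ± 0.27 (SE) on the log2 scale, adjusted p = 0.00017. *FREM2* (XLOC_023251), of the epidermal basement membrane, rose from 70.3 and 104 to 504, 441 and 431 (log2 fold change 2.39 ± 0.31 (SE)). *TGFBI* (XLOC_023074) and *SMOC2* (XLOC_050801) fell, from 308 and 249 to 107, 82.6 and 67 (-1.77 ± 0.21 (SE)) and from 581 and 276 to 130.4, 147 and 79.6 (-1.94 ± 0.34 (SE), -1.30 without T20 replicate 1). A second, more abundant *TGFBI* locus (XLOC_027215) went the other way, with 425 and 892 normalised counts at T20 and 3019.6, 3725 and 4025 at T21. It rose by 2.45 ± 0.36 (SE) on the log2 scale, adjusted p = 0.0071 (3.09 without T20 replicate 2). The hyaluronan synthase *has2* (XLOC_027790) and the cartilage protein *Matn4* (XLOC_019591), both added after values were seen, had 4.48 and 1.86 normalised counts at T20 and 40.9, 47.4 and 34.1 at T21 and 8.97 and 3.72 normalised counts at T20 and 134, 176 and 166 at T21 (log2 fold changes 3.58 ± 0.78 (SE), 4.38 without T20 replicate 1, and 4.57 ± 0.61 (SE), 5.40 without T20 replicate 1). The adjusted p of *has2* was 0.013, and 0.056 to 0.057 without T21 replicates 2 or 3.

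Matrix proteases and modifiers gave 12 higher and 3 lower of 33 tested loci (7 higher without T21 replicate 2). *Adamts1* (XLOC_030208), which cuts versican and aggrecan, had 102 and 91.2 normalised counts at T20 and 2109, 2048 and 2287 at T21. It rose by 4.46 ± 0.26 (SE) on the log2 scale, adjusted p = 5.3e-06. *SULF1*/*Sulf2* (XLOC_002073), which trim sulphate from heparan sulphate and change how Wnts and FGFs bind, had 1057 and 752 normalised counts at T20 and 2901, 3517 and 3009 at T21. It rose by 1.78 ± 0.18 (SE) on the log2 scale, adjusted p = 0.00012. *ADAM19* (XLOC_020705) had 526 and 583 normalised counts at T20 and 1074, 1124 and 973 at T21. It rose by 0.92 ± 0.14 (SE) on the log2 scale, adjusted p = 0.0014. Both loci of *RECK*, a membrane inhibitor of matrix metalloproteases, fell. The first (XLOC_018642) had 1445 and 949.6 normalised counts at T20 and 342, 379 and 311 at T21. It fell by 1.82 ± 0.20 (SE) on the log2 scale, adjusted p = 0.00027. The second (XLOC_006913) had 297 and 218 normalised counts at T20 and 111, 96.4 and 104 at T21. It fell by 1.33 ± 0.24 (SE) on the log2 scale, adjusted p = 0.0043.

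Guidance and migration cues gave 31 higher and 10 lower of 96 tested loci, with 16 higher without T21 replicate 3, 17 higher without T21 replicates 1 or 2 and 5 lower without T21 replicate 1. *SEMA3D* (XLOC_053192), a secreted semaphorin of NC and roof plate, had 43.3 and 142 normalised counts at T20 and 2237, 2474 and 2381 at T21. It rose by 4.71 ± 0.37 (SE) on the log2 scale, adjusted p = 0.00015 (4.07 without T20 replicate 1 or 5.77 without T20 replicate 2). *EDNRB* (XLOC_023333), the endothelin receptor that steers pigment and gut NC, had 44.8 and 89.4 normalised counts at T20 and 959, 1253 and 1058 at T21. It rose by 4.04 ± 0.38 (SE) on the log2 scale, adjusted p = 0.00014. *ERBB4* (XLOC_028733), a neuregulin receptor whose loss misroutes cranial NC in mice, had 193 and 195 normalised counts at T20 and 914, 1117 and 1134 at T21. It rose by 2.44 ± 0.28 (SE) on the log2 scale, adjusted p = 0.00029. Semaphorin loci of the list were called higher at 8 and lower at 3, the last being *SEMA6A*, *Sema3f*/*CD36* and *SEMA5B*/*dirc2* (XLOC_006517, log2 fold change -0.61 ± 0.09 (SE)). *SEMA6A* (XLOC_048244) had 1275 and 1346 normalised counts at T20 and 516, 462 and 646 at T21. It fell by 1.27 ± 0.15 (SE) on the log2 scale, adjusted p = 0.00022. The locus of *Sema3f* and *CD36* (XLOC_024021) had 4753 and 3534 normalised counts at T20 and 1858, 1690.5 and 1925 at T21. It fell by 1.19 ± 0.12 (SE) on the log2 scale, adjusted p = 6.6e-05. A separate *SEMA3F* locus (XLOC_012682) rose, from 85.2 and 104 to 243, 185 and 229 (1.20 ± 0.29 (SE)), with an adjusted p of 0.051 to 0.087 without T20 replicate 1 or T21 replicates 1 or 3. Another *Sema5b* locus (XLOC_033690, overlapping *Adcy5* and *tmem198*) also rose, from 2525 and 1951 to 5469, 5050 and 6303 (1.32 ± 0.16 (SE)). Values with a library left out are not given for this *Sema5b* locus. *pdgfra* (XLOC_027032), the PDGF receptor of mesenchyme, had 996 and 646 normalised counts at T20 and 381, 404 and 416 at T21. It fell by 1.04 ± 0.16 (SE) on the log2 scale, adjusted p = 0.0015. A scarcer locus of the same name (XLOC_011415, overlapping *ARSD*) went up, with 26.9 and 3.72 normalised counts at T20 and 64.2, 82.6 and 59.6 at T21 (log2 fold change 2.09 ± 0.60 (SE), 4.18 without T20 replicate 1 or 1.34 without T20 replicate 2, adjusted p = 0.046), a call lost when any library but T20 replicate 1 was left out. A ligand for this receptor, *PDGFC* (XLOC_023235, added after values were seen), had 142 and 317 normalised counts at T20 and 1023, 1063 and 995 at T21. It rose by 2.17 ± 0.30 (SE) on the log2 scale, adjusted p = 0.0014 (2.85 without T20 replicate 2). The neurotrophin receptor *NGFR* (XLOC_006443), a surface marker of migrating NC also added after values were seen, had 152 and 274 normalised counts at T20 and 1265, 1441 and 1412 at T21. It rose by 2.69 ± 0.46 (SE) on the log2 scale, adjusted p = 0.011. Its adjusted p was 0.074 to 0.11 without T20 replicates 1 or 2. *plxna4* (XLOC_038843) and *Epha7* (XLOC_036694), abundant receptors for semaphorins and ephrins, were not called (log2 fold changes 0.18 ± 0.08 (SE) and 0.14 ± 0.10 (SE)).

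**Figure D3:**
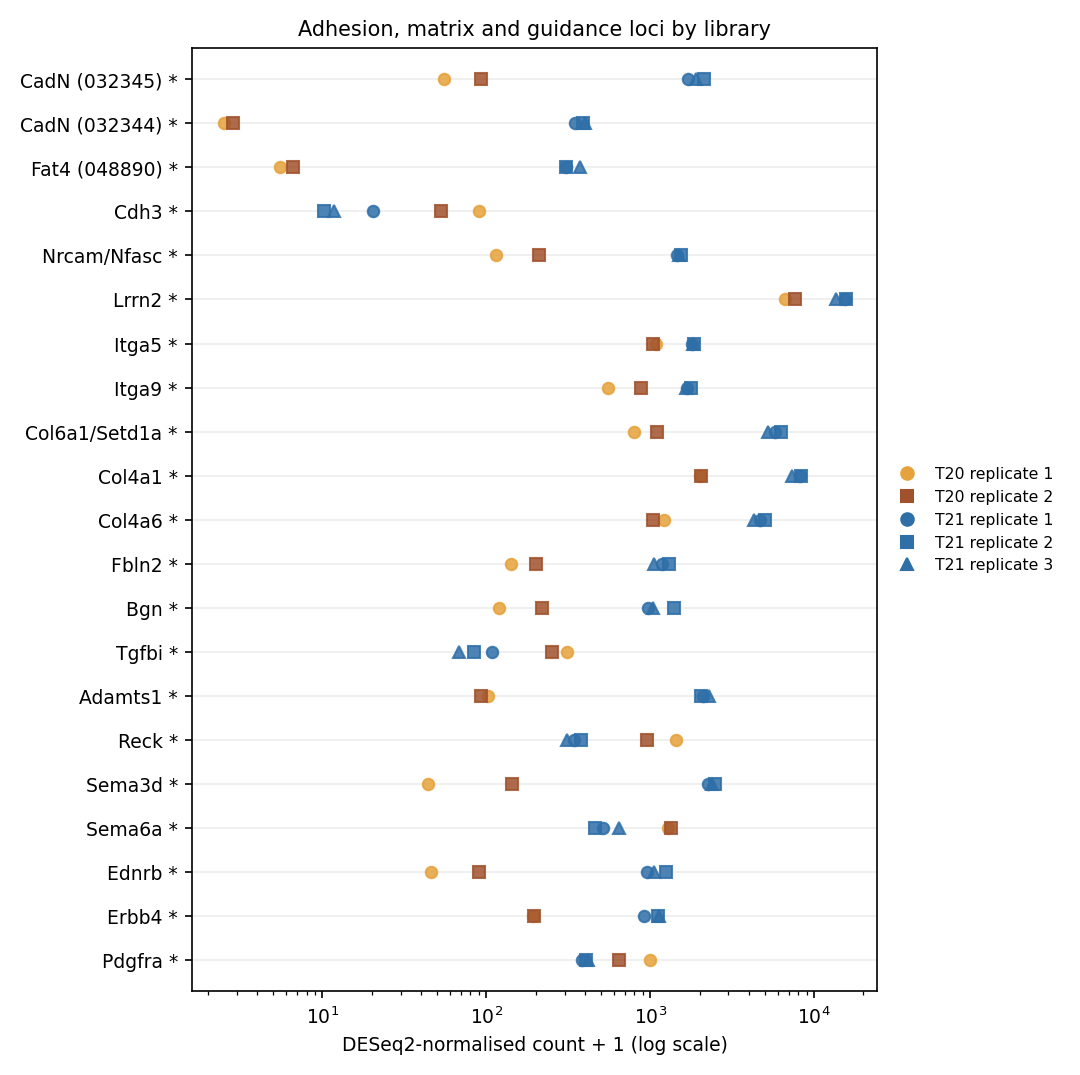
Normalised counts plus 1 on a log axis at 21 adhesion, matrix and guidance loci, 1 symbol per library, with the T20 libraries in orange and brown and T21 in blue; an asterisk marks an adjusted p under 0.05, and numbers in brackets are locus numbers where a name has several loci. At every locus drawn the 3 T21 libraries lie on 1 side of both T20 libraries, below them at *Cdh3*, *Tgfbi*, *Reck*, *Sema6a* and *Pdgfra*.

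Neurogenic factors were higher at 9 and lower at 3 of 37 tested loci (24.3% and 8.11%), with 5 lower without T20 replicate 2. *ATOH1* (XLOC_014883), the bHLH factor of the rhombic lip and of dorsal interneurons, had 5, 0 and 0 normalised counts at T18, 8.97 and 1.86 at T20 and 304, 311 and 361 at T21. It rose by 5.80 ± 0.76 (SE) on the log2 scale, adjusted p = 0.001 (7.40 without T20 replicate 1 or 5.17 without T20 replicate 2). *dbx1* (XLOC_002242), of intermediate interneurons, had 95.7 and 68.9 normalised counts at T20 and 514, 451 and 423 at T21. It rose by 2.47 ± 0.24 (SE) on the log2 scale, adjusted p = 6.6e-05. *St18*/*MYT1L* (XLOC_000148), zinc-finger factors of postmitotic neurons, had 324 and 298 normalised counts at T20 and 998, 1022 and 929 at T21. It rose by 1.65 ± 0.17 (SE) on the log2 scale, adjusted p = 9.9e-05. The *EBF3* loci went opposite ways. The first (XLOC_020661, overlapping *ebf2-a*) had 16.4 and 59.6 normalised counts at T20 and 298, 317 and 259 at T21. It rose by 2.96 ± 0.42 (SE) on the log2 scale, adjusted p = 0.001 (2.29 without T20 replicate 1 or 4.14 without T20 replicate 2). The second (XLOC_017543) had 1447 and 968 normalised counts at T20 and 644, 607 and 627 at T21. It fell by 0.96 ± 0.16 (SE) on the log2 scale, adjusted p = 0.0027. *foxn4* (XLOC_009213), of intermediate progenitors, had 499 and 356 normalised counts at T20 and 214, 226 and 191 at T21. It fell by 1.05 ± 0.18 (SE) on the log2 scale, adjusted p = 0.0032. *POU4F2* (XLOC_027069), a sensory neuron factor added after values were seen, had 14.9 and 57.7 normalised counts at T20 and 247, 297 and 271 at T21. It rose by 2.93 ± 0.53 (SE) on the log2 scale, adjusted p = 0.0051 (2.24 without T20 replicate 1 or 4.18 without T20 replicate 2).

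Genes of neuronal wiring and function were higher at 19 and lower at 1 of 67 tested loci (28.4% and 1.49%), with a median log2 fold change of 0.86 and 10 higher without T21 replicate 3, 12 higher without T21 replicate 2, 0 lower without T18 replicate 2 or T20 replicate 2 or T21 replicates 1, 2 or 3 and 2 lower without T20 replicate 1. *SHANK2* (XLOC_016649, overlapping *Shank3*), a scaffold of the postsynaptic side, had 102 and 109.9 normalised counts at T20 and 588, 555 and 585 at T21. It rose by 2.44 ± 0.21 (SE) on the log2 scale, adjusted p = 2.6e-05. *Map2* (XLOC_005421), which bundles microtubules in dendrites, had 73.2 and 95 normalised counts at T20 and 304, 378 and 339.8 at T21. It rose by 2.01 ± 0.27 (SE) on the log2 scale, adjusted p = 0.00075. The calcium channel *CACNA1G* (XLOC_051232) had 1021 and 729.9 normalised counts at T20 and 1872, 2022 and 2314 at T21. It rose by 1.23 ± 0.17 (SE) on the log2 scale, adjusted p = 0.00069. The neurotrophin *NTF3* (XLOC_003535), added after values were seen, had 2.99 and 0 normalised counts at T20 and 58.4, 42.8 and 35.5 at T21, a ratio of 24 (95% interval 6.53 to 200). The synaptic *snap25* (XLOC_029610) was not called, with 3082 and 4091 normalised counts at T20 and 3720.1, 4013 and 3683 at T21 (log2 fold change 0.08 ± 0.11 (SE)). The single lower locus, *RBFOX1*/*RBFOX3* (XLOC_021571), had 19.4 and 20.5 normalised counts at T20 and 0, 3.06 and 2.59 at T21, and its adjusted p was 0.054 to 0.1 without T18 replicate 2 or T20 replicate 2 or T21 replicates 1, 2 or 3. A more abundant *rbfox1* locus (XLOC_003504) rose, with 596 and 596 normalised counts at T20 and 1043, 1227 and 1118 at T21 (log2 fold change 0.91 ± 0.13 (SE)).

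Factors that divide the neural tube into regions gave 6 higher and 9 lower of 45 tested loci (13.3% and 20%), with 2 higher without T21 replicates 1 or 3 and 3 higher without T21 replicate 2. *pax6a* (XLOC_001848), of forebrain and ventral hindbrain progenitors, had 133 and 219.7 normalised counts at T20 and 846, 1033 and 817 at T21. It rose by 2.35 ± 0.25 (SE) on the log2 scale, adjusted p = 0.00012. *PAX5* (XLOC_040186), of the midbrain-hindbrain boundary, had 235 and 486 normalised counts at T20 and 2045, 1966 and 2137 at T21. It rose by 2.51 ± 0.49 (SE) on the log2 scale, adjusted p = 0.025 (3.13 without T20 replicate 2). It lost its call at an adjusted p of 0.054 to 0.095 without T20 replicate 1 or T21 replicates 1 or 3. A pair of *Gbx1* loci fell. One (XLOC_006821) had 2129 and 1908 normalised counts at T20 and 914, 1029.6 and 1004 at T21. It fell by 1.05 ± 0.10 (SE) on the log2 scale, adjusted p = 3.9e-05. The other (XLOC_018764) had 3508 and 2379 normalised counts at T20 and 1714, 1732 and 1704 at T21. It fell by 0.79 ± 0.14 (SE) on the log2 scale, adjusted p = 0.0035. The forkhead genes *FOXB1* (XLOC_008449) and *FOXD1* (XLOC_005490) fell, from 371 and 343 to 187, 167 and 181 (log2 fold change -1.01 ± 0.16 (SE)) and from 369 and 391 to 101, 109 and 142 (-1.68 ± 0.29 (SE)). The pan-neural *SOX1* (XLOC_048580) was not called, with 4855 and 4498 normalised counts at T20 and 5094, 5061 and 5157 at T21 (0.12 ± 0.08 (SE)), so this neural marker was present in all 5 libraries.

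Markers of tissues next to the DNT moved between the stages, and their part in the results above was not tested. The summed normalised counts of 20 mesoderm loci were 6097 and 3895 in T20 replicates 1 and 2 and 2737 to 2870 in the T21 libraries, after 13563 to 14899 at T18. Of 19 tested, 2 were called higher and 7 lower, or 10.5% and 36.8%, against 17.8% and 14% among named loci. With both T20 libraries kept, there were 0 higher without T21 replicate 1 and 1 higher without T18 replicates 1, 2 or 3 or T21 replicates 2 or 3. All members had a count at T21. *FOXC1* (XLOC_010705), of paraxial mesoderm, had 374 and 259 normalised counts at T20 and 73.9, 75 and 48.9 at T21. It fell by 2.35 ± 0.25 (SE) on the log2 scale, adjusted p = 0.00017. A second *FOXC1* locus (XLOC_040843), added after values were seen, had 1233 and 532 normalised counts at T20 and 105, 106 and 74 at T21. It fell by 3.31 ± 0.36 (SE) on the log2 scale, adjusted p = 0.002 (-2.57 without T20 replicate 1). *SCX* (XLOC_010359), of tendon progenitors, had 958 and 711 normalised counts at T20 and 181, 196 and 141 at T21. It fell by 2.32 ± 0.24 (SE) on the log2 scale, adjusted p = 0.00023. *Meox2* (XLOC_063579) had 184 and 112 normalised counts at T20 and 21.4, 22.9 and 16.3 at T21. It fell by 2.97 ± 0.27 (SE) on the log2 scale, adjusted p = 4.2e-05. The muscle list, in contrast, summed to 37482 to 40850 at T20 and 38424 to 44248 at T21. Of its 32 tested loci, 4 were higher (12.5%), among them *Des*, *Ldb3* and *MYOM2*, and 3 lower (9.38%). Both shares were under those of named loci. With both T20 libraries kept, none was called lower without T21 replicates 1, 2 or 3. At the lower loci, *TNNC2*, *CHRNA1* and *chrnd*, T20 replicate 1 was the higher T20 library.

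Endoderm markers gave 3 higher and 7 lower of 20 tested loci (15% and 35%), with 4 lower without T21 replicate 2. *TM4SF4* (XLOC_048611) had 13.5 and 20.5 normalised counts at T20 and no count in any T21 library, which made it at least 21.4-fold lower. The higher loci were *agr2* (XLOC_018633) and a pair of *Agr3* loci, whose relatives also mark secretory cells of the epidermis. *agr2* had 287 and 769 normalised counts at T20 and 2899, 3477 and 2899 at T21. It rose by 2.55 ± 0.41 (SE) on the log2 scale, adjusted p = 0.01 (3.43 without T20 replicate 2). The summed level of the 21 loci, these included, was 6238 and 6371 at T20 and 7777 to 10057 at T21. Notochord and floor plate markers were lower at 4 of 9 tested loci (44.4%) and higher at 1 (11.1%). With both T20 libraries kept, there were 0 higher without T21 replicates 1, 2 or 3. Lower loci were 0 without T21 replicates 2 or 3 and 2 without T21 replicate 1. At all 4 lower loci, *SHH*, *shha*, *Foxa2* and a *COL2A1* locus, T20 replicate 1 was the higher T20 library. *Foxa2* (XLOC_026423) had 117 and 26.1 normalised counts at T20 and 11.7, 4.59 and 12.6 at T21. It fell by 2.80 ± 0.62 (SE) on the log2 scale, adjusted p = 0.018 (-1.27 without T20 replicate 1 or -3.44 without T20 replicate 2), and its adjusted p was 0.059 to 0.21 without T20 replicate 1 or T21 replicates 1, 2 or 3. A second *FOXA2* locus (XLOC_029647) had 82.2 and 0 at T20 and no count at T21. The higher one was *COL2A1* (XLOC_005107), also a cartilage collagen, with 7639.7 and 8025 normalised counts at T20 and 15847, 17070.3 and 15629 at T21. It rose by 1.04 ± 0.24 (SE) on the log2 scale, adjusted p = 0.035. The adjusted p rose to 0.072 to 0.23 without T20 replicates 1 or 2 or T21 replicates 1, 2 or 3. A second *COL2A1* locus (XLOC_028575) was among the lower ones, with 256 and 39.1 normalised counts at T20 and 13.6, 15.3 and 20.4 at T21 (log2 fold change -3.09 ± 0.68 (SE), -1.11 without T20 replicate 1 or -3.83 without T20 replicate 2), and its adjusted p was 0.073 to 0.11 without T20 replicate 1 or T21 replicates 1, 2 or 3. The first locus set most of the sum of the list, 8638 to 8719 at T20 and 16257 to 17626 at T21.

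Epidermis markers summed to 66460 and 117773 in the T20 libraries and 165313 to 189003 at T21. Of 28 tested loci, 10 were higher and 1 lower (35.7% and 3.57%), with 3 higher without T21 replicates 2 or 3, 5 higher without T21 replicate 1, 6 higher without T20 replicate 1 and 0 lower without T18 replicates 1, 2 or 3 or T20 replicate 1 or T21 replicates 1, 2 or 3. *EVPL*/*PLEC* (XLOC_002104), plakins that anchor keratin, had 303 and 315 normalised counts at T20 and 1346, 1576 and 1365 at T21. It rose by 2.20 ± 0.15 (SE) on the log2 scale, adjusted p = 6.1e-06. *KRT9* (XLOC_012581) had 23.9 and 20.5 normalised counts at T20 and 146, 162 and 227 at T21. It rose by 3.00 ± 0.49 (SE) on the log2 scale, adjusted p = 0.0026. *Krt8* (XLOC_005424) had 34.4 and 322 normalised counts at T20 and 4195, 5384 and 3953 at T21. It rose by 4.71 ± 0.75 (SE) on the log2 scale, adjusted p = 0.016 (3.81 without T20 replicate 1 or 7.03 without T20 replicate 2). The most abundant keratin (XLOC_028492, also *Krt8*) was not called, with 9105 and 33769 normalised counts at T20 and 74209, 78602 and 67556 at T21 (log2 fold change 1.77 ± 0.71 (SE), 1.13 without T20 replicate 1 or 3.01 without T20 replicate 2, adjusted p = 0.21). At both *Krt8* loci T20 replicate 2 was the higher T20 library, by 9.37-fold and 3.71-fold. The lower locus was *TP63* (XLOC_042779), the master factor of epidermis, with 7988 and 5649 normalised counts at T20 and 5290.2, 5053 and 5052 at T21. It fell by 0.42 ± 0.12 (SE) on the log2 scale, adjusted p = 0.049. The adjusted p became 0.066 to 0.35 without T18 replicates 1, 2 or 3 or T20 replicate 1 or T21 replicates 1, 2 or 3.

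Blood and vessel markers gave 3 higher and 2 lower of 16 tested loci (18.8% and 12.5%), near the shares of named loci (17.8% and 14%). *gata1-a* (XLOC_012712), of red cell precursors, had 1729 and 1274 normalised counts at T20 and 391, 356 and 339.8 at T21. It fell by 2.07 ± 0.18 (SE) on the log2 scale, adjusted p = 2.2e-05. *KLF2* (XLOC_024868), of endothelium, had 2338 and 2177 normalised counts at T20 and 1167, 1178 and 1427 at T21. It fell by 0.85 ± 0.13 (SE) on the log2 scale, adjusted p = 0.0015. *Fli1* (XLOC_003509), an Ets factor of endothelium and NC, had 61.3 and 67 normalised counts at T20 and 379, 421 and 456 at T21. It rose by 2.70 ± 0.41 (SE) on the log2 scale, adjusted p = 0.0019. *LYVE1* (XLOC_016653), a hyaluronan receptor, had 16.4 and 65.2 normalised counts at T20 and 368, 441 and 362 at T21. It rose by 3.29 ± 0.42 (SE) on the log2 scale, adjusted p = 0.00049 (2.59 without T20 replicate 1 or 4.56 without T20 replicate 2). Placode markers gave 3 higher and 3 lower of 17 tested loci (17.6% each), near the shares of named loci, with 1 higher without T21 replicate 1. Their sums were 10536 to 10698 at T20 and 9449 to 9792 at T21. Motile cilia genes gave 3 higher and 1 lower of 36 (8.33% and 2.78%), under the shares of named loci by edgeR's test. With DESeq2, 7 were higher and 1 lower, and no share of named loci is given for that test. There were 0 higher without T21 replicate 1 and 0 lower without T21 replicates 1 or 3. Their median log2 fold change was 0.62, however, against 0.27 over named loci. Their sums were 7008 to 7160 at T20 and 7869 to 8656 at T21.

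**Figure D4:**
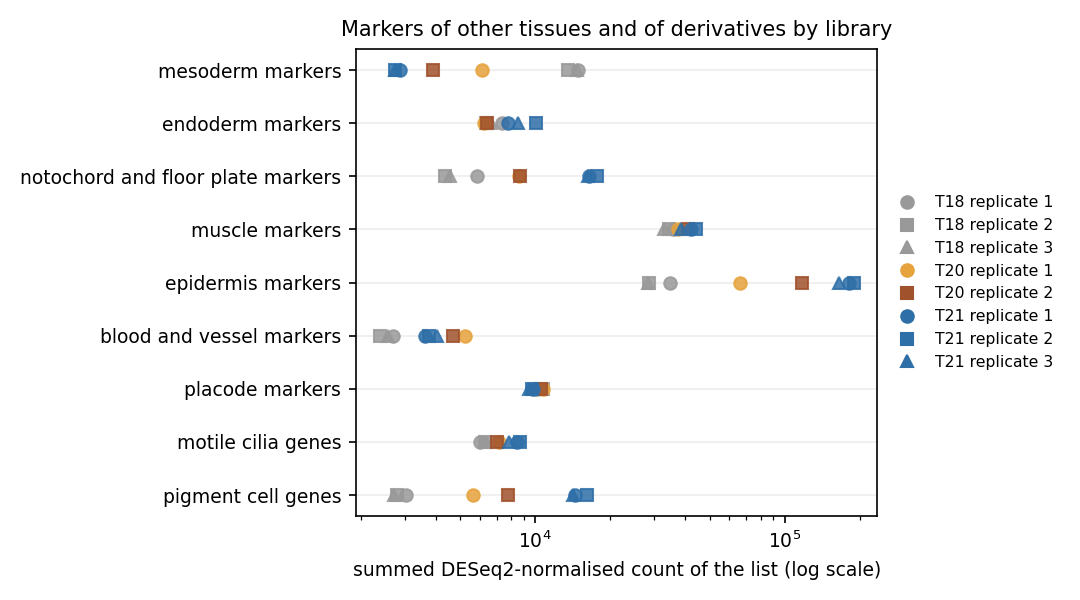
Summed normalised counts on a log axis of 9 marker lists in all 8 libraries, 1 symbol per library, with T18 in grey, the T20 libraries in orange and brown and T21 in blue. Mesoderm markers fall from 13563 to 14899 at T18 to 2737 to 2870 at T21 and epidermis markers rise from 66460 and 117773 at T20 to at least 165313 at T21, with the T20 libraries apart in both.

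Pigment cell genes were higher at 6 of 11 tested loci (54.5%) and lower at none by edgeR's test, and their summed level was 5628 and 7788 at T20 and 14152 to 16183 at T21. *Gch1* (XLOC_011818), which makes the cofactor of pteridine and tyrosine chemistry, had 1432 and 2655 normalised counts at T20 and 7049, 7446 and 7041 at T21. It rose by 1.81 ± 0.23 (SE) on the log2 scale, adjusted p = 0.0022. *Rab27a* (XLOC_044752), which moves melanosomes, had 281 and 318 normalised counts at T20 and 765, 848 and 763 at T21. It rose by 1.39 ± 0.17 (SE) on the log2 scale, adjusted p = 0.00029. *RAB32* (XLOC_043754, overlapping *Adgb*), which delivers enzymes to them, had 146 and 253 normalised counts at T20 and 506, 549 and 484 at T21. It rose by 1.36 ± 0.24 (SE) on the log2 scale, adjusted p = 0.0035. *EDNRB*, given above, is also a member.

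Genes of ribosome biogenesis were the list with the highest share of lower loci, 42 of 67 (62.7%), against 14% among named loci and 4.4% among all tested, and 1 was higher. The median log2 fold change was -0.38, so the falls were small, and the counts were 24 lower without T21 replicate 3, 26 lower without T21 replicate 1 and 27 lower without T21 replicate 2. *Pes1* (XLOC_041635), of the PeBoW complex that assembles the large ribosomal subunit, had 17209 and 16142 normalised counts at T20 and 8499, 7793 and 7902 at T21. It fell by 1.06 ± 0.08 (SE) on the log2 scale, adjusted p = 1.1e-05. *Nop56* (XLOC_017766), a box C/D snoRNP core protein, had 15609.7 and 15912 normalised counts at T20 and 10133, 10172 and 9524 at T21. It fell by 0.68 ± 0.08 (SE) on the log2 scale, adjusted p = 0.0002. *npm1* (XLOC_038120), nucleophosmin, had 7726 and 8727 normalised counts at T20 and 5489, 5449 and 5266 at T21. It fell by 0.62 ± 0.09 (SE) on the log2 scale, adjusted p = 0.00081. *MPHOSPH10* (XLOC_044753), of the small subunit processome, had 6714 and 5532 normalised counts at T20 and 3936, 3782 and 3452 at T21. It fell by 0.73 ± 0.09 (SE) on the log2 scale, adjusted p = 0.0005. Every T21 library was below both T20 libraries at each of these. The higher locus was *WDR74*/*KIF6* (XLOC_053840), with 179 and 222 normalised counts at T20 and 412, 387 and 382 at T21. It rose by 0.97 ± 0.20 (SE) on the log2 scale, adjusted p = 0.0099. A second locus with both names (XLOC_053815) was among the lower ones (log2 fold change -0.48 ± 0.08 (SE)).

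Cell cycle genes were lower at 13 of 34 tested loci (38.2%) and higher at none by edgeR's test, with a median log2 fold change of 0.06 and 1 higher without T21 replicate 3, 2 higher without T20 replicate 2 and 7 lower without T21 replicates 1 or 3. *POLA2* (XLOC_034286), of DNA polymerase alpha, had 1803 and 1555 normalised counts at T20 and 1226, 1119.9 and 1013 at T21. It fell by 0.60 ± 0.10 (SE) on the log2 scale, adjusted p = 0.0031. *CCNB2* (XLOC_008236, overlapping *Rnf111*), cyclin B2, had 13357 and 14992 normalised counts at T20 and 9966, 10028 and 9033 at T21. It fell by 0.56 ± 0.08 (SE) on the log2 scale, adjusted p = 0.0012. The phosphatase *CDC25A* (XLOC_020621) had 4217 and 4597 normalised counts at T20 and 3372, 3409 and 3099 at T21. It fell by 0.43 ± 0.08 (SE) on the log2 scale, adjusted p = 0.0064. Among other genes of the division machinery, those not called included *Anln* (XLOC_032514), with 8377 and 8455 normalised counts at T20 and 9938, 9865 and 9451 at T21 (log2 fold change 0.20 ± 0.09 (SE)), and *mcm4-b* (XLOC_040765, overlapping *Tmem189*), with 8154 and 8159 normalised counts at T20 and 9331, 8811 and 8185 at T21 (0.09 ± 0.08 (SE)).

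Secretory pathway genes gave 19 higher and 8 lower of 49 tested loci (38.8% and 16.3%), with 12 higher without T21 replicate 2, 3 lower without T21 replicates 1 or 3 and 5 lower without T21 replicate 2. The most abundant rises were chaperones of the endoplasmic reticulum. *CALR* (XLOC_039606, overlapping *GLRX*) had 14579.8 and 16639.7 normalised counts at T20 and 26622, 27158 and 23121 at T21. It rose by 0.70 ± 0.09 (SE) on the log2 scale, adjusted p = 0.00048. *HSP90B1* (XLOC_038873) had 9765 and 13069 normalised counts at T20 and 21198, 20935 and 18276 at T21. It rose by 0.81 ± 0.11 (SE) on the log2 scale, adjusted p = 0.00087. *PDIA6* (XLOC_000428) had 8559 and 9760 normalised counts at T20 and 14332, 14583 and 13156 at T21. It rose by 0.60 ± 0.08 (SE) on the log2 scale, adjusted p = 0.00085. The cargo receptor *TMED7* (XLOC_030949) had 2429 and 2452 normalised counts at T20 and 1786, 1880.2 and 1739.9 at T21. It fell by 0.45 ± 0.08 (SE) on the log2 scale, adjusted p = 0.0046. Sterol synthesis genes gave 1 higher and 2 lower of 20 tested loci (5% and 10%), under the shares of named loci. The higher one was *TM7SF2* (XLOC_053603), with 83.7 and 14.9 normalised counts at T20 and 364, 496 and 534 at T21. It rose by 3.18 ± 0.56 (SE) on the log2 scale, adjusted p = 0.0072 (4.98 without T20 replicate 1 or 2.48 without T20 replicate 2).

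A few loci outside the lists had adjusted p-values among the smallest and were picked after values were seen. *IGFBP3* (XLOC_028523), a carrier that withholds insulin-like growth factors, had 28.4 and 22.3 normalised counts at T20 and 735, 818 and 724 at T21. It rose by 4.87 ± 0.26 (SE) on the log2 scale, adjusted p = 1.2e-06. *Igfbp2* (XLOC_005148) had 129 and 205 normalised counts at T20 and 983, 1076 and 1010 at T21. It rose by 2.62 ± 0.22 (SE) on the log2 scale, adjusted p = 2.1e-05. *TRIM71* (XLOC_047809), an RNA-binding protein of early progenitors that the let-7 microRNA silences in worms and mammals, had 8955 and 7650.5 normalised counts at T20 and 2559, 2641 and 3196 at T21. It fell by 1.57 ± 0.11 (SE) on the log2 scale, adjusted p = 8.2e-06. The cyclin *ccnd2* (XLOC_001934) had 16553 and 14631 normalised counts at T20 and 8643, 8017 and 8976 at T21. It fell by 0.88 ± 0.09 (SE) on the log2 scale, adjusted p = 0.00012. In each case the groups lay apart by several times the gap between the T20 libraries.

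Loci with no name held 980 of the 2481 calls. The rise with the smallest adjusted p (XLOC_017600, scaf_00015:10233697-10247382, plus strand, 5 exons in its longest transcript) had 0, 0.826 and 1.35 normalised counts at T18, 1.49 and 0 at T20 and 545, 586 and 668 at T21, a ratio of 769 (95% interval 138 to 30384). The second rise (XLOC_009273, scaf_00007:15272966-15308883, plus strand) had 372 and 573 normalised counts at T20 and 2858, 2585 and 2727 at T21. It rose by 2.52 ± 0.17 (SE) on the log2 scale, adjusted p = 6.1e-06. A locus on the minus strand of scaf_01851 (XLOC_065063, scaf_01851:12275-15726) was highest at T20 of the 3 stages. It had 63.7, 81.8 and 63 at T18, 2972 and 1594 at T20 and 13.6, 26 and 21.5 at T21. It fell by 6.76 ± 0.30 (SE) on the log2 scale, adjusted p = 1.2e-06. The second fall (XLOC_063564, scaf_00903:9965-26216, plus strand) went from 1270.1, 1402 and 1249 at T18 through 460.4 and 503 at T20 to 138, 97.9 and 133 at T21. It fell by 1.96 ± 0.16 (SE) on the log2 scale, adjusted p = 1.5e-05.

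The T20 libraries differed from each other more than libraries of the other stages did. Of 12031 loci with a mean of at least 100 normalised counts over the T20 and T21 libraries, 7.02% were more than 2-fold apart between them, against 0.382% to 0.507% for pairs of T21 libraries and 1.6% to 3.19% for pairs of T18 libraries. To place each, the log2 distance from the T18 mean was divided by that from T18 to T21, over the 9873 loci called between T18 and T21 in a fit without the T20 libraries. On this scale, where T18 is 0 and T21 is 1, the median locus was at 0.55 in T20 replicate 1 and 0.64 in T20 replicate 2. Over the 2453 of these loci more than 4-fold apart, the medians were 0.54 and 0.67, and T20 replicate 2 was nearer to T21 at 59.1% (95% Wilson interval 57.2 to 61%). Over all 9873 it was nearer at 51.7%, and more often at loci rising from T18 to T21 (54.9%) than at those falling (47.6%).

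Some lists set the T20 libraries further apart. The median position was 0.43 in T20 replicate 1 and 0.83 in T20 replicate 2 over 27 NC factor loci, and 0.19 and 0.81 over 12 blood and vessel loci. It was 0.29 and 0.74 over 9 notochord and floor plate loci and 0.57 and 0.80 over 23 epidermis loci. In other lists the order was opposite or the gap small, with 0.59 and 0.47 over 64 ribosome biogenesis loci, 0.39 and 0.32 over 30 neural adhesion loci and 0.43 and 0.49 over 57 collagen loci. Several loci given above as not called passed the threshold with 1 library left out. Without T20 replicate 2 the adjusted p was 5.7e-06 for *TFAP2B*, 0.00049 for *P4HB*, 0.0027 for *ACVR2B*, 0.0076 for *Tfap2a*, 0.032 for the second *FOXA2* locus, 0.037 for *MSX2*, 0.039 for *WLS*, 0.041 for *ZEB1* and 0.044 for *snap25*. Without T20 replicate 1 it was 0.0098 for *Epha7* and 0.048 for *TGFBR1*, without T21 replicate 3 it was 0.00099 for *CLDN3* and 0.048 for *WLS*, and without T18 replicate 1 it was 0.043 for *COL1A1*. The labels give the same stage and number of embryos for both T20 libraries, and whether the pools differed in age or in dissection was not tested.

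**Figure D5:**
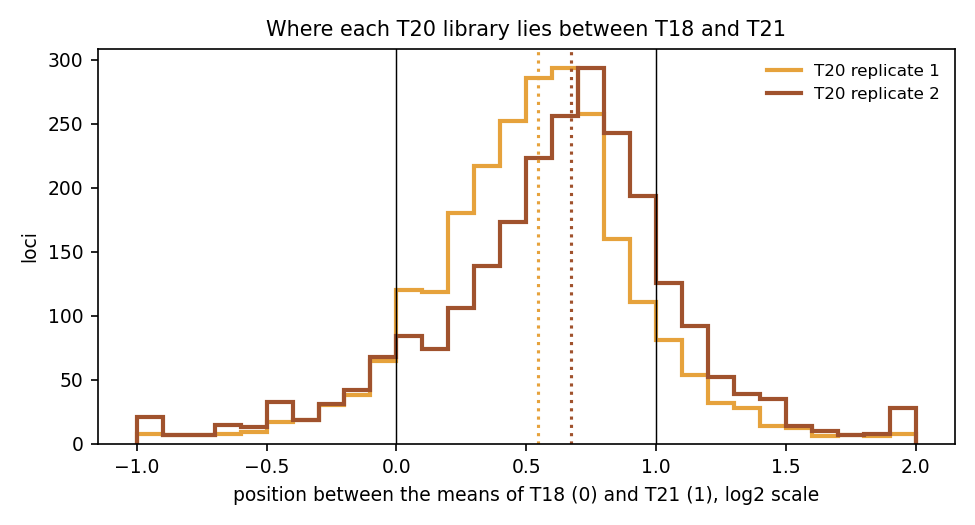
Number of loci by the position of each T20 library between the means of T18 (0) and T21 (1), in bins of 0.1 on the log2 scale, over 2453 loci called and more than 4-fold apart between T18 and T21; dotted lines are medians and the outermost bins also hold loci beyond the axis. T20 replicate 2 (median 0.67) is shifted toward T21 from T20 replicate 1 (median 0.54), and both distributions are broad.

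Spliced loci were called higher in 6.99% and lower in 5.63% of 17630 cases, and single-exon loci in 1.76% and 1.57% of 7687. At a mean of 1000 normalised counts or more, 6.82% of loci were higher and 12% lower. At 100 to 1000 the order was reversed, with 8.98% higher and 4.46% lower.

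Chromatin accessibility was read from 236315 ATAC-seq peaks called by the authors on pooled sea lamprey libraries, which hold positions only. The set merges peaks of DNTs at T20 and T21 with those of whole heads at a later stage. It does not describe the DNT of these stages alone. Among loci with a strand, a peak lay within 1000 bases of the start of 68.2% of higher loci (95% Wilson interval 65.6 to 70.7%), 74% of lower loci (71.2 to 76.6%) and 72.8% of loci not called (72.1 to 73.4%). Among loci with a mean of at least 100 normalised counts the shares were 71.8%, 76.4% and 77.4%. At 100 to 1000 normalised counts they were 68.6%, 63% and 73.6%, so that lower loci had the smallest share there. Loci are not independent of each other, and the intervals cover counting error only.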

How the data were processed

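PolyA RNA was sequenced from pools of dissected DNTs, and p-values measure the spread between pools, estimated for each locus over all stages together. The T20 pools lay further apart than those of the other stages, so this shared estimate may understate their spread. Per the methods and the submitters' notes, the authors used Sickle for trimming, STAR 2.4.2 for mapping to the sea lamprey germline assembly, Cufflinks for assembling loci and featureCounts 1.4.6-p4 for counting. The deposited counts are raw fragments per locus, read on the strand of the locus, and multi-mapping reads were kept, so that near copies of a gene may hold the same reads. The 40780 loci without a strand were counted on the plus strand. The deposited normalised values are a signal on a linear scale, counts divided by the authors' DESeq2 1.8.2 size factors, which was checked for each library. The count table's rows sit 1 field to the left of its header, so that its last header field heads no values and the deposited table's columns were matched to libraries through the normalised values. The deposited ATAC-seq peak files, called by the authors with MACS2 on pooled libraries, were used for positions only.

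All 8 DNT libraries were fitted with edgeR 4.0.16 in R 4.3.3 (TMM factors, filterByExpr, robust quasi-likelihood fit, stage as the only term), and T21 was contrasted with T20. Standard errors were taken from the F statistic. Alternatives used DESeq2 1.42.0, and the code was tested on simulated data. Other steps used Python 3.11.15 with pandas 2.3.3, numpy 2.4.6, scipy 1.17.1 and matplotlib 3.10.9. A lower bound replaces a fold change where a stage had no count, against a floor of 3 counts over the stage, and a ratio with its 95% interval is given for 1 to 3 counts. Bounds and intervals cover counting error only.

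Gene names were taken from the study's supplementary lists, held here in part, which name 5020 loci, 658 of them with several names. Named loci are the 10 largest rises and falls (no overlap of T20 and T21 libraries, mean of at least 20 in the higher stage), up to 4 called loci per direction and 2 not called per list, and others where stated, with preference for calls that held without each library. Names and the 33 lists were chosen with earlier results of these data known. Further loci that share a name with these, *WNT7B* and *SEMA5B* were added after values were seen. Some loci that the rule names are not reported here, and sequences were not analysed here.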

Additional observations from a re-analysis of the deposited data

How the results depend on the processing

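With one library left out at a time, 1255 to 3978 loci were called, 751 to 2216 higher and 477 to 1762 lower at T21. The lowest totals came without a T21 library (1255, 1331 and 1344 without replicates 1, 2 and 3) and the highest without T20 replicate 1. Fits without a T20 library have 1 pool at T20, so spread between T20 pools does not enter their calls. Between 49.8% and 91.1% of the calls were kept, and none took the opposite sign. The total was 2938 with DESeq2 (1771 higher, 1167 lower), 2370 with RLE factors, 2773 with upper quartile factors, 3215 without a filter on low counts and 1923 with the T20 and T21 libraries alone, of which 647 were lower. At an adjusted p under 0.01 it was 953 (579 higher, 374 lower). When a change of more than 2-fold was tested for, 250 loci were called, 196 higher and 54 lower. With a replicate block 1709 were called, 980 higher and 729 lower. Deviations of same-numbered T20 and T21 libraries correlated at -0.03 and 0.04 over loci. The largest value between stages was 0.0802, for replicate 3 of T18 and T21. For T20 replicate 1 and T21 replicate 3, numbered differently, it was 0.0795. With 2 T20 libraries the deviations mirror each other, so these values cannot decide whether the numbers pair the samples. The cause of these shifts was not tested.

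More lists had higher than lower loci in 18 of 33 cases, and in 18 to 21 under the alternatives. Among the loci named here, none that was called changed direction. Of those not called, 7 changed sign with 1 T20 library left out, with log2 fold changes over the libraries left out of -0.28 to 0.064 for *ZEB1*, -0.024 to 0.22 for *Gli3*, -0.17 to 0.31 for *MSX2*, -0.19 to 0.11 for *Etv4*, -0.096 to 0.30 for *snap25*, -0.020 to 0.35 for *Epha7* and -0.23 to 0.70 for *snai1*. T20 replicate 2 was nearer to T21 at 44.7% of all 24793 loci tested between T18 and T21, against 51.7% of those called. Within 2000 bases of the start, 81.8% of higher, 84.7% of lower and 84.9% of uncalled loci had a peak, and at a mean of at least 100 normalised counts the shares within 1000 bases were 71.8%, 76.4% and 77.4%. The shallowest library had 12172421 counts and T20 had 2 pools, which limits the precision, and a locus not called is not shown to be level.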
